A study of Mus musculus with 6 samples.

Results

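Mx1 and Mx2 are the mouse members of the Mx family, and both were measured here in 3 cell lines with and without interferon-beta. The members were chosen by name, as every probe set that the array annotation gives to Mx1 or Mx2, which were 2 of the 35557 probe sets and 2 of the 19938 genes measured by a probe set of a single gene. Mx1 was read by probe set 10441233 and Mx2 by probe set 10437224. No probe set naming several genes included either of them, and neither had a further probe set.

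Mx proteins are large GTPases of the dynamin superfamily that assemble into rings and block steps in the growth of viruses. Mouse Mx1 acts in the nucleus against influenza and related viruses, and mouse Mx2 acts in the cytoplasm against vesicular stomatitis virus. Both genes are known as targets of type I interferon, whose receptor activates the transcription complex ISGF3, which binds interferon-stimulated response elements in promoters. Many inbred mouse strains carry Mx alleles that give no functional protein, and the RefSeq annotation of the C57BL/6J genome (GRCm38.p6) lists both genes, on chromosome 16, as transcribed pseudogenes. The arrays measured transcript level and not protein, and the alleles of the 3 lines were not tested.

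Total RNA from each line was hybridised to 1 whole-transcript Affymetrix array per condition, 6 arrays in all. The groups were L929 (mouse connective tissue fibroblasts), NIH3T3 (mouse embryonic fibroblasts) and RAW264.7 (a mouse macrophage line), each stimulated with IFN-β for 4 h and each left unstimulated. The labels used here state neither the dose of IFN-β nor how many cultures stand behind an array. With 1 array per group a difference within a line carries no error, and the tests across the lines take the 3 lines as replicates. The test of RAW264.7 against the fibroblast lines has 1 pair of RAW264.7 arrays, so no replicate of that line. The 6 arrays limit the precision of every value. Values are log2 levels made by the authors with RMA, on which a difference of 1 is a doubling. RNA came from whole cultures, so more RNA per cell and more cells with the RNA cannot be told apart.

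The labels of the lines were first set against marker genes. All 12 macrophage markers were higher in RAW264.7 than in both fibroblast lines, with median log2 levels of 10.41 in unstimulated RAW264.7, 3.98 in NIH3T3 and 4.25 in L929. None of the 12 fibroblast markers was higher in RAW264.7 (0 of 12), where their median was 4.90 against 10.64 in NIH3T3 and 9.17 in L929. Epithelial and lymphocyte markers had medians from 4.25 to 5.43 on every array. The stimulated NIH3T3 array had a median over all probe sets of 5.05, and the other 5 arrays had medians from 4.72 to 4.82. The median gene changed with IFN-β by -0.05 in L929, 0.17 in NIH3T3 and -0.03 in RAW264.7, and the changes in each line stand against that base.

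The first comparison was of each Mx transcript with and without IFN-β in every line. Mx1 had log2 levels of 8.46 in L929, 7.78 in NIH3T3 and 7.73 in RAW264.7 with IFN-β, and 3.07, 3.499 and 3.34 in the same lines unstimulated. The 3 stimulated levels lay within 0.73 of each other and the 3 unstimulated levels within 0.43, with no overlap between the conditions. Mx2 had log2 levels of 9.11 in L929, 8.80 in NIH3T3 and 8.58 in RAW264.7 with IFN-β, and 2.96, 3.03 and 5.44 in the same lines unstimulated. The stimulated levels of Mx2 were within 0.53 of each other, whereas unstimulated RAW264.7 stood 2.47 above unstimulated L929, the lowest. The conditions did not overlap for Mx2 either. Over all genes, 4.85% had their lowest stimulated level above their highest unstimulated one, so the lack of overlap alone is not rare.

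The gap between the conditions was wide for both genes. For Mx1 the lowest stimulated level exceeded the highest unstimulated one by 4.24 on the log2 scale, and 5 genes of the 19938 had a larger gap. For Mx2 the gap was 3.15, from the RAW264.7 arrays alone, and 11 genes had a larger one.

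**Figure D1:**
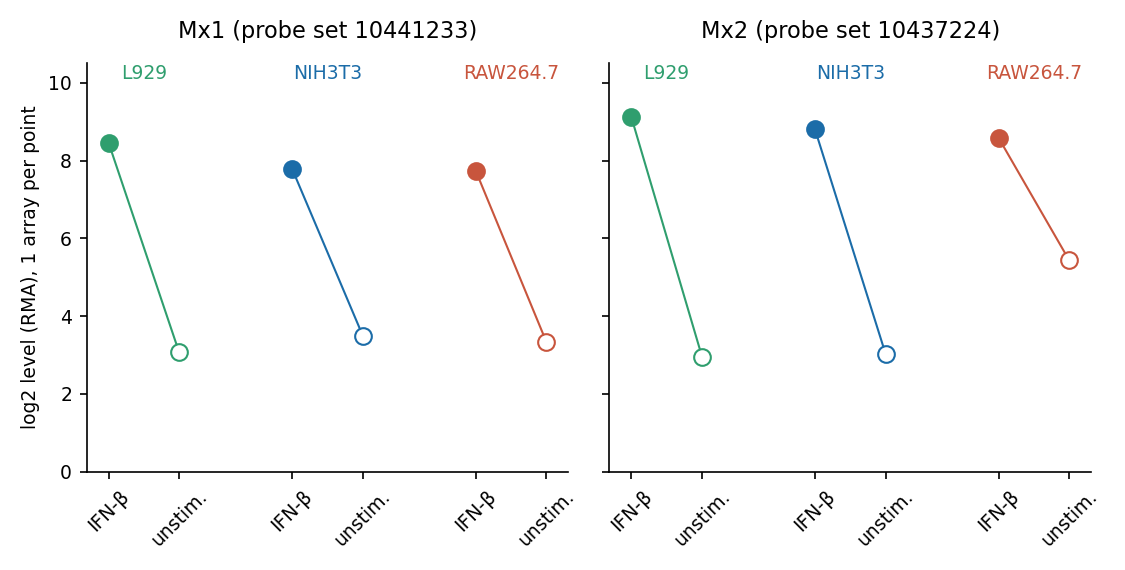
Log2 level (RMA) of Mx1 and Mx2 on each of the 6 arrays, with IFN-β as filled and unstimulated as open circles and the arrays of a line joined. Every stimulated level lies between 7.73 and 9.11, and the unstimulated levels lie between 2.96 and 3.499 except for Mx2 in RAW264.7, at 5.44.

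Without IFN-β the transcripts stood low among all genes on 5 of the 6 occasions. Mx1 lay at percentile 13.1 of the unstimulated L929 array, 20.1 of NIH3T3 and 17.4 of RAW264.7. Mx2 lay at percentile 11.7 in L929 and 12.7 in NIH3T3, but at 54.3 in RAW264.7, above the median gene. With IFN-β Mx1 reached percentiles of 88.0 in L929, 80.2 in NIH3T3 and 78.6 in RAW264.7, and Mx2 reached 92.5, 90.4 and 87.1 in the same order. Array levels this low are compressed by background, so that folds taken from them are approximate. With 1 array per group, the order of lines within a condition has no spread to be judged by.

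Within each line both genes were past the 3-fold threshold that the series' design text uses. Mx1 was 42.0-fold higher with IFN-β in L929, 19.5-fold in NIH3T3 and 21.1-fold in RAW264.7. Mx2 was 71.1-fold higher in L929, 54.7-fold in NIH3T3 and 8.86-fold in RAW264.7. Mx1 thus differed least between NIH3T3 and RAW264.7, while Mx2 had its smallest fold in RAW264.7. The share of all genes at least 3-fold higher was 0.893% in L929, 0.476% in NIH3T3 and 0.617% in RAW264.7, and 0.311% were so in all 3 lines. Both members belonged to that last group.

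Ranked by change among the 19938 genes, Mx1 was number 31 in L929, 16 in NIH3T3 and 11 in RAW264.7. Mx2 was number 18 in L929, 5 in NIH3T3 and 33 in RAW264.7. The place of the genes is therefore exchanged between lines, with Mx2 ahead of Mx1 in both fibroblast lines and Mx1 ahead of Mx2 in the macrophage line. The changes of Mx2 less those of Mx1 were 0.76 in L929, 1.49 in NIH3T3 and -1.25 in RAW264.7 on the log2 scale, with a mean of 0.33 ± 1.42 (SD, n = 3 lines). An exact sign-flip permutation test over the 3 lines gave a two-sided p of 0.75, where the smallest p the design allows is 0.25.

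**Figure D2:**
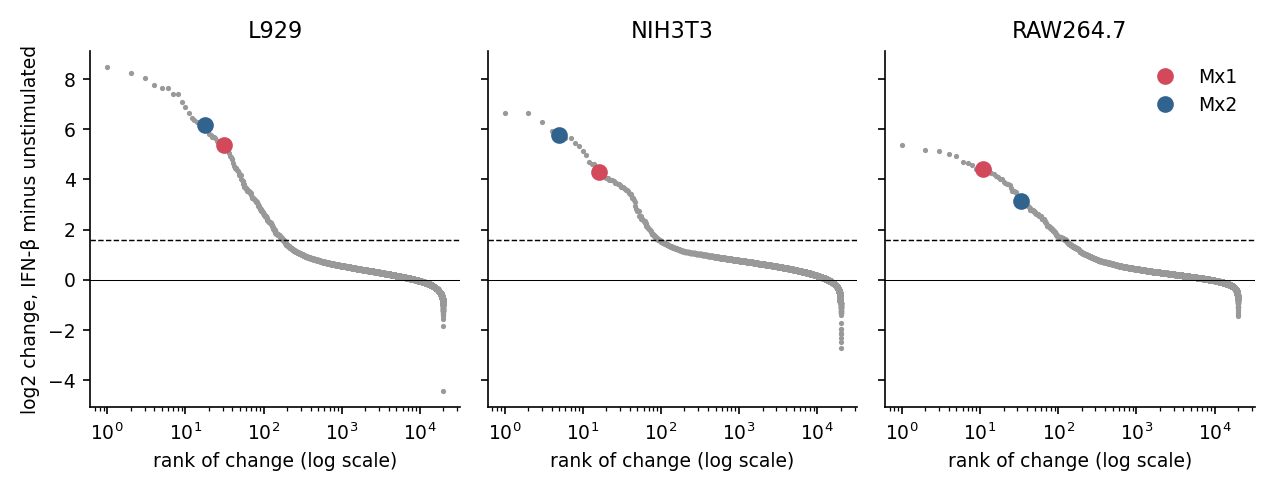
Log2 change (IFN-β minus unstimulated) of every gene against its rank in each line, on a log rank axis, with Mx1 and Mx2 marked and 3-fold as a dashed line. Mx2 holds rank 18 in L929, 5 in NIH3T3 and 33 in RAW264.7, and Mx1 ranks 31, 16 and 11.

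Tested over the 3 pairs of arrays, both transcripts rose. Mx1 rose by a mean log2 change of 4.69 ± 0.22 (limma SE, n = 3 lines), or 25.8-fold (limma adjusted p = 1.61e-05), and was higher in 3 of 3 lines. Mx2 rose by 5.02 ± 0.45 (limma SE, n = 3 lines), or 32.5-fold (limma adjusted p = 0.000531), and was likewise higher in 3 of 3 lines. The same test found 146 of the 19938 genes higher (0.732%) and 0 lower. The lowest adjusted p of a gene with a lower level was 0.124.

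The members differed more in the evenness of the response than in its mean. By mean change Mx2 was number 12 and Mx1 number 15 of all genes, but by p Mx1 was number 2 and Mx2 number 26. The SD of the change between lines was 0.61 for Mx1 and 1.64 for Mx2, and the limma SE of both is smaller than these SDs alone would give, since limma moves each gene's variance toward that of all genes. Without the RAW264.7 pair the mean change of Mx2 was 5.96, which is the mean of the fibroblast lines alone, while that of Mx1 was 4.84. The call of Mx2 was lost under robust empirical Bayes with a variance trend (limma adjusted p = 0.552), with no cell line term (0.292) and with all probe sets tested together (0.0965). Mx1 kept its call in each of these 3 settings, with adjusted p-values of 4.37e-07, 0.0383 and 0.0466.

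An interaction term then asked whether RAW264.7 responded differently from the fibroblast lines. The change of Mx2 was 3.15 in RAW264.7 against a fibroblast mean of 5.96, a difference of -2.82 ± 0.49 (SE) with a limma adjusted p of 2.41e-05. The change of Mx1 was 4.40 in RAW264.7 against a fibroblast mean of 4.84, a difference of -0.44 ± 0.49 (SE) with a limma adjusted p of 0.99996, so a smaller difference of Mx1 was not detectable with these arrays. Over all genes 0.155% had a smaller change in RAW264.7 by this test. The fit had 1 residual degree of freedom and gave all genes the same SE, so its p-values assume that RAW264.7, with 1 pair of arrays, varies like the fibroblast lines. On simulated data this fit made more false calls than its threshold allows, and with all probe sets tested together the Mx2 call was lost (adjusted p = 0.312).

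Most of the difference of Mx2 lay in the unstimulated arrays. Mx2 in unstimulated RAW264.7 was 2.44 above the mean of the unstimulated fibroblast lines, at 5.44 against 2.996, while in stimulated RAW264.7 it was 0.38 below the stimulated fibroblast mean (a difference of -0.38), at 8.58 against 8.96. For Mx1 the same differences were 0.05 without IFN-β, at 3.34 against 3.28, and -0.39 with it, at 7.73 against 8.12. A level in unstimulated RAW264.7 at least 1 above both fibroblast lines was found for 4.41% of all genes. L929 and NIH3T3 were close for both members, with unstimulated differences (L929 minus NIH3T3) of -0.43 for Mx1 and -0.07 for Mx2. None of these level differences has a test, since each group had 1 array. In unstimulated RAW264.7 the Mx1 probe set was near its fibroblast level and the Mx2 probe set was above it, each on 1 array. Probe sequences were not used here, so cross-hybridisation, between the Mx transcripts or with other transcripts, was not tested.

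A higher starting level in RAW264.7 was shared with other induced genes. Of the 146 genes called higher, 50 (34.2%) had an unstimulated level in RAW264.7 at least 1 above both fibroblast lines, Mx2 among them, and 4 had one at least 1 below, where 3.79% of all genes did. Among the 146 the median difference of RAW264.7 from the fibroblast mean was 0.78 without IFN-β and 0.35 with it. By the size of its starting difference Mx2 was number 23 of the 146, behind Rtp4 (5.21), Usp18 (4.44), Irf7 (3.53) and others, and 119 of the 146 had a larger one than Mx1. Of the 50 genes with a higher start, 14 ended with stimulated levels of the 3 lines within 1 of each other. These were Mx2, Rtp4, Ddx58, Irgm1, Bst2, Parp9, Irf9, Dtx3l, Rnf213, Ifi35, Eif2ak2, Psmb10, Mitd1 and Psme2, named after their values were seen. Of all genes, 73.7% had stimulated levels within 1, and of the 146 genes called higher 55 (37.7%) did, so this closeness is no mark of the 14. The interaction test called a smaller change in RAW264.7 for 24 of the 146 genes, Mx2 among them, and 20 of those 24 had the higher start. These calls rest on 1 pair of RAW264.7 arrays and on the fit that made too many false calls in simulation. That change contains the unstimulated RAW264.7 array, so the count of 20 does not stand apart from the starting levels.

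**Figure D3:**
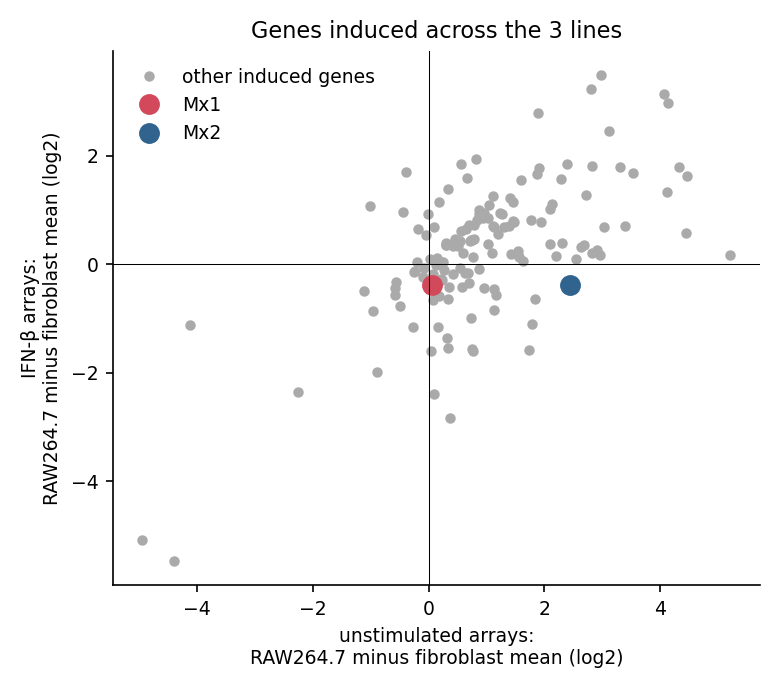
Level in RAW264.7 minus the mean of the fibroblast lines for the 146 genes called higher across the lines, without IFN-β on the horizontal and with IFN-β on the vertical axis (log2). Mx1 lies near the origin at 0.05 and -0.39, and Mx2 lies to the right at 2.44 and -0.38.

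The neighbours of the Mx genes on chromosome 16 were compared next, as the order of genes in RefSeq's GRCm38.p6 annotation gives them. Mx1 and Mx2 are separated there by 1 protein-coding gene, Fam3b, which encodes a secreted cytokine-like protein. Fam3b had log2 levels of 2.95 in L929, 3.25 in NIH3T3 and 3.18 in RAW264.7 with IFN-β, and 3.09, 2.97 and 2.97 unstimulated. Its changes of -0.15, 0.28 and 0.21 went in both directions, and its mean change was 0.11 (limma adjusted p = 0.967). Bace2, an aspartic protease gene on the far side of Mx1, had changes of 0.15 in L929, -0.01 in NIH3T3 and 0.08 in RAW264.7. Tmprss2, a serine protease gene on the far side of Mx2, had changes of 0.42, 0.55 and 0.09 in the same order, with a mean of 0.36 (limma adjusted p = 0.955).

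None of the 11 neighbouring protein-coding genes was called in either direction (0 higher and 0 lower), and none was 3-fold higher in any line. Over all genes 0.732% were called higher and 0 lower. From 0.476% to 0.893% were 3-fold higher in a line, so a count of 0 among 11 is no mark of the neighbours. Besides the 3 genes above the neighbours were the 4 genes Igsf5, Itgb2l, Pcp4 and Dscam before Bace2, and Ripk4, Prdm15, C2cd2 and Zbtb21 after Tmprss2. Changes of the 11 genes in single lines ran from -0.61, for the kinase gene Ripk4 in L929, to 0.85, for Igsf5 in NIH3T3. Their median mean change was 0.09, against 0.03 for all genes. Their levels ran from 2.95 to 7.61, and 2 of them, Fam3b and Dscam, were below 4 on every array. Pcp4, Bace2, Tmprss2 and Ripk4 also stayed below 4.82, the median over all arrays and probe sets. At such low levels a change could be hidden by background.

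**Figure D4:**
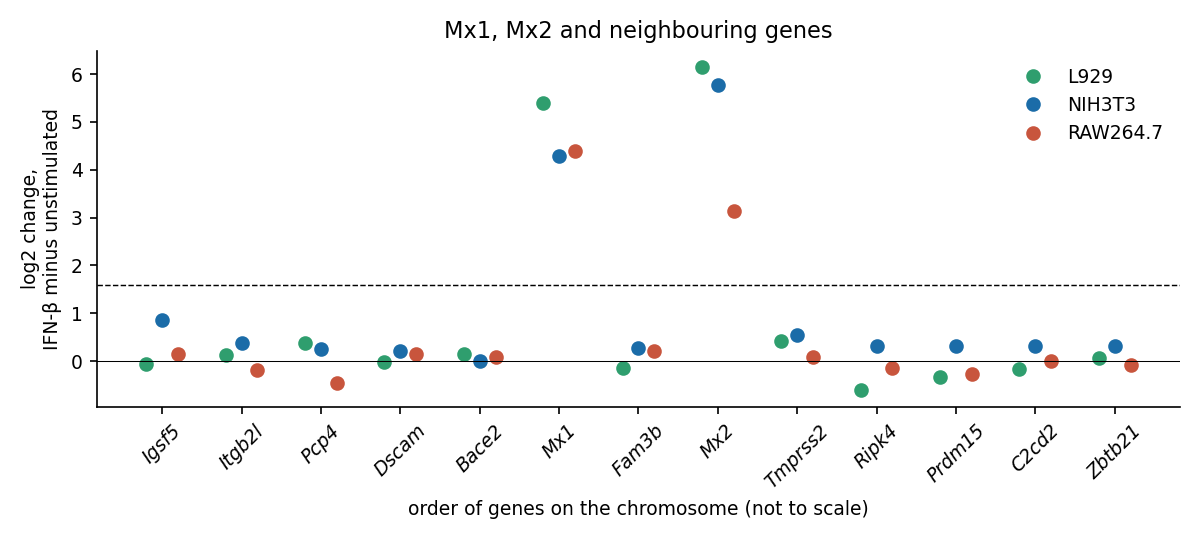
Log2 change (IFN-β minus unstimulated) in the 3 lines for Mx1, Mx2 and the 11 nearest protein-coding genes, in chromosomal order and not to scale, with 3-fold as a dashed line. All changes of Mx1 and Mx2 lie between 3.15 and 6.15, and those of the neighbours between -0.61 and 0.85.

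A list of dynamin superfamily genes outside Mx, relatives by sequence, came next, with the guanylate-binding proteins kept as a list of their own. None of the 13 measured was called (0 higher and 0 lower), among them the dynamins Dnm1, Dnm2 and Dnm3, the mitochondrial fission and fusion genes Dnm1l, Opa1, Mfn1 and Mfn2, and the atlastins. Their median mean change was 0.01, against 0.03 for all genes. Over all genes 0.732% were called higher and 0 lower, so a count of 0 among 13 is no mark of this list. Ehd4, of the EHD proteins of endosomal membranes, had the highest, with changes of 0.67 in L929, 1.36 in NIH3T3 and 0.70 in RAW264.7 and a mean of 0.91 (limma adjusted p = 0.0782). Ehd4 passed with the arrays centred on their median (0.0481), with a variance trend (0.0498), robustly with that trend (0.0414) and without RAW264.7 (0.0343). Ehd3 had -0.17 in L929, 0.999 in NIH3T3 and -0.05 in RAW264.7, and Mfn2 a mean of -0.25.

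Other interferon-inducible GTPases rose with the Mx genes. All 8 measured guanylate-binding proteins and all 4 measured immunity-related GTPases, families that act on vacuoles of intracellular pathogens, were called higher. The share of all genes called higher was 0.732%. Gbp3, Gbp7 and Gbp2b had mean changes of 5.68, 5.36 and 4.52, and Gbp2b had the widest range, with 6.06 in L929, 2.36 in NIH3T3 and 5.13 in RAW264.7. Iigp1, Gm4951 and Gm12250 had mean changes of 6.20, 5.04 and 4.95. Set beside these 12 GTPases, Mx2 had the largest change in NIH3T3 (0 of the 12 larger), while 6 were larger in L929 and 8 in RAW264.7. For Mx1 those counts were 3, 7 and 4. Without the block of cell line 0 of the 12 was called, and with all probe sets tested together 2 guanylate-binding proteins and 0 immunity-related GTPases were. Robust empirical Bayes with a trend called 3 guanylate-binding proteins and 1 immunity-related GTPase, and quantile normalization called 5 guanylate-binding proteins.

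Among all genes 0.732% were called higher and 0 lower. In the pathway upstream of the Mx genes, 6 of the 12 measured receptor, kinase, transcription factor and inhibitor genes rose and 0 fell. These were the ISGF3 subunits Stat2, with a mean change of 3.13, and Irf9, with 2.22, the factors Irf7 (3.96), Irf1 (2.49) and Irf2 (1.23), and the deconjugase and inhibitor Usp18. Usp18 had the widest range, with 7.42 in L929, 6.27 in NIH3T3 and 2.98 in RAW264.7. The receptor genes Ifnar1 and Ifnar2 had mean changes of -0.19 and 0.07, the kinase genes Jak1 and Tyk2 0.04 and 0.18, and the feedback inhibitors Socs1 and Socs3 0.78 and 0.16, and none of the 6 passed. Without the block 0 of these genes passed, with all probe sets 1 did, and robustly with a trend 3 did.

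Of 18 measured antiviral effectors 12 rose and 0 fell, where 0.732% of all genes rose and 0 fell. The median mean change of the effectors was 2.65. Ifit1, whose product binds foreign RNA, Ifit3 and Ifit3b had mean changes of 6.33, 6.01 and 5.95. Rtp4 had the widest range, with 7.08 in L929, 5.65 in NIH3T3 and 1.33 in RAW264.7. In this list 5 genes had a larger mean change than Mx1 and 4 a larger one than Mx2. The count of 12 was 4 robustly with a trend, and 1 without the block or with all probe sets.

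Mouse Mx1 protein has been found near PML nuclear bodies and bound to parts of the SUMO system. Of 9 measured genes of these structures 3 rose and 0 fell, where 0.732% of all genes rose and 0 fell. Sp100 had changes of 6.37 in L929, 4.07 in NIH3T3 and 2.39 in RAW264.7, Daxx had a mean change of 2.25 and Pml one of 1.73. Sumo2, Sumo3 and Pias1 had mean changes of -0.03, -0.19 and 0.06 and did not pass. Without the block and with all probe sets 0 of the 9 passed.

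**Figure D5:**
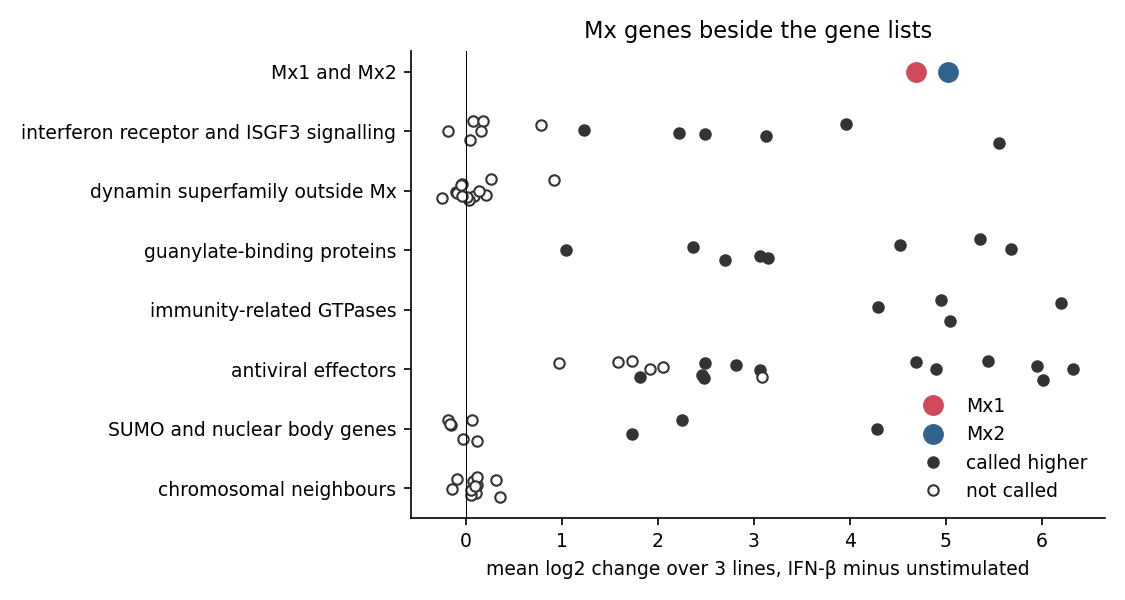
Mean log2 change over the 3 lines (IFN-β minus unstimulated) of Mx1, Mx2 and each measured member of the gene lists, filled where limma's adjusted p was under 0.05 and open where it was not. Mx1 at 4.69 and Mx2 at 5.02 lie among the guanylate-binding proteins and immunity-related GTPases. They lie apart from the genes listed as dynamin superfamily outside Mx, whose highest value is 0.91.

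Genes with a pattern like that of each member were found by Pearson's r of the log2 levels over the 6 arrays, among 6940 genes whose levels ranged by at least 1. The arrays are 3 stimulated and 3 unstimulated ones, so that r is high for most induced genes, and it is given as a description. Nearest to Mx1 were Parp10 (r = 0.995), Gbp3 (0.994), Oasl2 (0.991), Gbp7 (0.990) and Ifi205 (0.990). Nearest to Mx2 were the immunoproteasome subunit gene Psmb10 (r = 0.993), Ifi35 (0.992), the RNA-activated kinase gene Eif2ak2 (0.991), Xaf1 (0.988) and Trim21 (0.987). The Mx genes were not each other's nearest, with r = 0.952, which placed Mx2 at number 32 for Mx1 and Mx1 at number 42 for Mx2.

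The unstimulated macrophage array was among the 6 that chose these genes, so their levels there are given as a description. Eif2ak2 had log2 levels of 10.23 in L929, 9.77 in NIH3T3 and 10.13 in RAW264.7 with IFN-β, and 7.06, 7.004 and 8.59 unstimulated, with RAW264.7 higher before IFN-β and the 3 lines close after it. Gbp3 had 10.33, 8.69 and 9.10 with IFN-β and 3.44, 3.57 and 4.08 unstimulated, with all 3 lines low before IFN-β. Oasl2, a relative of the oligoadenylate synthetases, was nearest to Mx1 when likeness was taken as the distance between centred levels, which weighs the size of the change. By that distance 4 of the 5 genes nearest to Mx1 stayed among its nearest 5 and 0 of the 5 nearest to Mx2 did.

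Of these 10 genes, 9 were matched in RefSeq's promoter table (GRCm38.p6, 250 bases before to 50 after a gene's start, first start listed), and 0 of the 2 Mx genes. The core of the interferon-stimulated response element, searched on both strands as GAAA, any 2 bases and GAAA (TTTC, any 2 bases and TTTC on the other strand), was found in 5 of the 9. The core was in 3.49% of all 27025 promoters, in 35.3% of those of the 116 called genes listed there, and in 3.08% of those of the other measured genes. Of the 5 genes with the core, Eif2ak2 and Trim21, both among those nearest to Mx2, had matches only after the start. These began 19 bases after it in Eif2ak2, and 14 and 20 in Trim21. The 150 bases before the start are printed here for the 3 genes with a match in them. All 3 are among those nearest to Mx1, and matches are in capitals.
Gbp3, chr3:142559894-142560043, plus strand: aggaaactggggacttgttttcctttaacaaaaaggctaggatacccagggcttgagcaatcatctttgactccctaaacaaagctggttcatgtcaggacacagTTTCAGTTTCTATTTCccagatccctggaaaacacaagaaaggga
Gbp7, chr3:142530186-142530335, plus strand: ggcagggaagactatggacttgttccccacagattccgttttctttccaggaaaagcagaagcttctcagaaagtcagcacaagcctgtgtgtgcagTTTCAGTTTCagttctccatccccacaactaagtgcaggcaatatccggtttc
Ifi205, chr1:174031756-174031905, minus strand: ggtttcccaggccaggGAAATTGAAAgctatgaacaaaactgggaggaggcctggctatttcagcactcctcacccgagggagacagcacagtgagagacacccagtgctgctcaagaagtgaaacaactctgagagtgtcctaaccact

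In the printed bases Gbp3 holds 2 overlapping matches, beginning 45 and 39 bases before the start. Gbp7 and Ifi205 hold 1 each there, beginning 53 and 134 bases before it. Ifi205 has a further match beginning 24 bases after the start, outside the printed bases. The other motif searched, the core of the gamma-activated site (TTC, any 3 bases and GAA), was in 3 of the 9 promoters, in 14.7% of those of the 116 called genes and in 8.47% of all. A match describes the letters in the window and is not a measured binding site.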

How the data were processed

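The deposited values are log2 levels per probe set, made by the authors with RMA, per the submitters' processing notes, whose version and settings stay unknown, and their range set the log base. RNA was extracted and labelled with commercial kits, per the labels' protocols, and each column was assigned by its sample's title. The array annotation names 1 gene for 21789 of 35557 probe sets, several for 1621 and none for 12147. Symbols were updated by Entrez ID (91 probe sets unmatched, 0 symbols changed). Where a gene had several probe sets (999 genes), the brightest on average was kept, giving 19938 genes, all of which were tested whatever their level. No label or header gives the build behind the array annotation, so no coordinates of the Mx genes are printed.

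Treatment was tested with limma 3.58.1 (R 4.3.3) in a model that also held the cell line, using empirical Bayes (2 residual and 7.87 prior degrees of freedom) and Benjamini-Hochberg adjustment over all genes, calling genes at an adjusted p under 0.05. Arrays are paired by cell line. Lines take the place of replicates, so p-values set a change against the spread between lines, after that spread is moved toward that of all genes. The interaction had 1 residual degree of freedom and the same SE for all genes, so its p-values do not hold a gene's own spread. Both fits were tested on simulated data, where the interaction made more false calls than its threshold allows. Python 3.11.15 did the rest.

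The members, gene lists, rules and tests were chosen with earlier results of these data known. The text names both members, the 5 genes most like each, all neighbours, and of each list the 3 largest changes and the widest range between lines. Other genes were named after their values were seen. Alternatives covered the probe set per gene, all probe sets, a level filter, centring, quantile normalization, empirical Bayes settings, no block, each line left out, and thresholds.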

Additional observations from a re-analysis of the deposited data

Results flagged for a closer look

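The change of Mx2 in RAW264.7 differed from the mean change of the fibroblast lines by -2.82 on the log2 scale, by a test of the difference itself (limma interaction, adjusted p = 2.41e-05, range over 8 alternatives 2.01e-05 to 0.312). RAW264.7 was lower in its change than both fibroblast lines, with 3.15 against 5.77 in NIH3T3 and 6.15 in L929. RAW264.7 had 1 pair of arrays, so the test takes its spread from the fibroblast lines, with 1 residual degree of freedom and the same SE for all genes, and on simulated data it made more false calls than its threshold allows. The difference of Mx2 was between -2.95 and -2.62 under the 8 alternatives.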

How the results depend on the processing

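Mx1 kept its direction and its call across the lines under all 13 alternatives, with mean changes from 4.34 to 4.89, and Mx2 kept its direction (4.46 to 5.96) but lost its call in 3 of 13, with a mean change of 5.02 and limma adjusted p-values of 0.0965 with all probe sets together, 0.552 with robust variances and a trend, and 0.292 without the block of cell line (no replicate block). Without the block 2 genes were called higher and with all probe sets 14, against 146. Leaving out a line gave 116 to 218 higher and 0 to 5 lower, and centring gave 1 lower, against 0. The RAW264.7 difference of Mx2, -2.82, lost its call with all probe sets (0.312). Genes at least 2-fold higher numbered 314 in L929, 345 in NIH3T3 and 228 in RAW264.7, and at 5-fold 115, 62 and 67. By distance 0 of the 5 genes nearest Mx2 stayed, and 498 promoters held the response element core on the given strand alone, against 943 on both.

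Among the 38 other named genes, 373 of 450 values kept direction and call, 57 lost the call, 4 gained it (Ehd4 each time) and 16 changed sign, all of genes that did not pass. With the arrays centred these were Pcp4 (-0.043), Bace2 (-0.025), C2cd2 (-0.042) and Zbtb21 (-0.0020), and with quantile normalization Itgb2l (-0.0029), Pcp4 (-0.048), Bace2 (-0.023) and Fam3b (-0.0049). Values without 1 line ran from -0.11 to 0.47 for Ehd3, -0.038 to 0.25 for Itgb2l, -0.11 to 0.31 for Pcp4, -0.38 to 0.086 for Ripk4, -0.31 to 0.022 for Prdm15, -0.078 to 0.16 for C2cd2 and -0.013 to 0.18 for Zbtb21. The cause of these changes was not tested. Each member had 1 probe set, so the choice of probe set could move only its adjusted p. The promoter search was not run for the Mx genes. Low array signal limits the folds from the unstimulated levels.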
